A study of Gallus gallus with 21 samples.

Results

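Chaperones and heat shock proteins help other proteins to fold, hold unfolded chains in solution and pass damaged ones on. The HSP70 proteins bind short unfolded stretches in a cycle driven by ATP, and the DNAJ proteins (HSP40) bring them their substrates and start that cycle. HSP90 acts later on signalling proteins and steroid receptors, the CCT ring encloses actin and tubulin, HSP60 with HSP10 encloses proteins imported into mitochondria, and the small heat shock proteins (HSPB) hold unfolding proteins without ATP and are known from muscle. Testes and ovaries express several of these genes, and in mammals HSPA2 is best known from male germ cells.

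The members were the probe sets of the Affymetrix chicken array with exactly 1 annotated gene whose symbol starts with HSPA, HSPB, HSPD, HSPE, HSPH, HSP90, DNAJ or CCT and a digit. This gave 105 of 19874 probe sets, for 63 of 9774 genes. By family they were 22 DNAJC, 7 DNAJB and 4 DNAJA genes, 10 HSP70 genes (HSPH1 included), 3 HSP90 genes, 2 genes for mitochondrial HSP60 and HSP10, 7 CCT subunits, 7 small heat shock proteins and HSPBAP1, which binds a heat shock protein and is none itself. Where a gene had several probe sets, as 31 did, the values below are of 1 of them, the probe set with values in the most tissues and then the brightest.

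The arrays were hybridized with RNA from the left gonad, a piece of the apical heart and the brain of White Leghorn embryos after 18 days of incubation. The groups were 4 testes and 3 ovaries, 3 male and 4 female hearts, and 3 male and 4 female brains, from 4 male and 4 female embryos, so that 21 arrays were compared. The brain sample had lost its cerebellum, optic lobes and hemispheres and was mainly diencephalon. Brain and heart together are called soma, and numbers such as ovary 20 are those of the embryos in the labels. The purification kit for gonad RNA was not that used for the soma, so that tissue and preparation cannot be told apart between gonads and soma.

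All values are log2 expression levels, on which a difference of 1 is a fold-change of 2, and they were compared only within a probe set. The deposited table leaves a probe set blank in a whole tissue. Values existed in gonads for 53 member genes, in heart for 61, in brain for 57 and in all 3 tissues for 50. Of the 10 genes blank in gonads some were bright elsewhere, such as CCT2, HSP90AB1 and HSPB1, and 335 of the 3375 probe sets blank in gonads averaged over 10 in the other tissues, so a blank was not read as absent expression. A sex or tissue difference was called at a fold-change above 1.5 with an adjusted p under 0.05.

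The tissues showed their markers. Of markers for neurons and glia, 6 had values in brain and averaged 12.7 to 13.14 per array there, and 9 heart muscle markers averaged 13.63 to 13.78 in heart. Supporting cell markers of the testis (5 of 5 measured) averaged 10.37 to 10.89 in testes and 6.56 to 6.91 in ovaries. Of these SOX9, INHA and CLDN11 were called higher in testis, while AMH (0.47) and DMRT1 (0.38) were not called. Supporting cell markers of the ovary (3 of 5) averaged 2.25 to 2.27 in testes and 10.64 to 11.17 in ovaries. The gonads differed in other cell types too. Smooth muscle markers (3 of 6 measured) averaged 8.79 to 9.64 in testes and 5.64 to 5.95 in ovaries, meiosis markers (7 of 8) 4.58 to 5.02 in testes and 8.53 to 9.39 in ovaries, and germ cell markers (7 of 8) 5.76 to 6.94 in testes and 7.5 to 8.95 in ovaries. The germ cell markers were mixed. PIWIL1, TDRD5 and DMC1 were lower in testis at the threshold given above, DND1 was higher, and DAZL, DDX4 and TDRD1 passed in neither direction. In a bulk sample, fewer cells of a type and less RNA per cell cannot be told apart.

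Testis and ovary were compared first. Of the small heat shock protein genes 3 of 4 were called higher in testis, of the HSP70 genes 2 of 9 were called lower, and no CCT or HSP90 gene was called. The size of these differences ran from 1.51-fold for HSPB9 to 6.55-fold for HSPB8. Of the 53 genes with values, 4 were called higher and 5 lower in testis, or 17.0% of members, where 26.9% of all 8552 genes with gonad values were called, 12.6% higher and 14.3% lower. With the arrays centred on a common median, which moved them by -0.158 to 0.157, or with quantiles equalized within a tissue, 3 were higher and 6 lower. The median difference, testis minus ovary, was -0.06 over the members and 0.004 over all genes. Testes and ovaries did not overlap for 20 of the 53 genes (37.7%), against 41.9% of all genes.

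**Figure D1:**
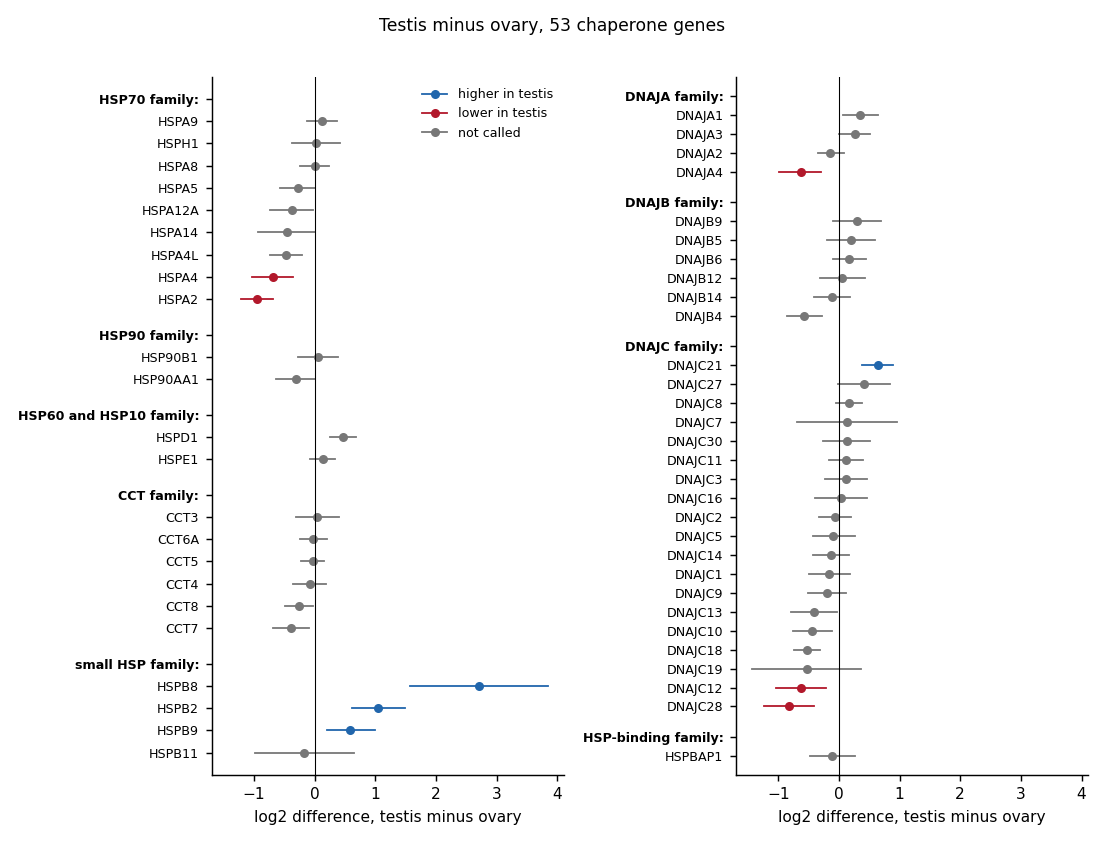
Difference between testis and ovary of each member gene (points, log2, testis minus ovary) with its 95% confidence interval (lines), ordered by family. Of 53 genes, 4 were called higher in testis (blue), 3 of them small heat shock proteins, and 5 lower (red); the remaining intervals are grey.

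HSPB8, a small heat shock protein that works with the co-chaperone BAG3, had the largest difference of all members. Its level was 8.11, 7.63, 7.99 and 7.81 in the 4 testes, against 5.25, 5.05 and 5.22 in the 3 ovaries. Every testis lay above every ovary by a wide margin, a difference of 2.71 (SE 0.54, 6.55-fold, adjusted p = 8.11e-04). Its hearts had 8.94 to 10.56 over both sexes.

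HSPB2, a muscle small heat shock protein that binds myotonic dystrophy protein kinase, followed the same order. It stood at 6.67, 6.46, 6.64 and 6.55 in testes and at 5.54, 5.28 and 5.77 in ovaries, with no overlap. The difference was 1.05 (SE 0.20, 2.07-fold, adjusted p = 0.00149). HSPB2 has no value in brain, and its hearts lay at 7.24 to 8.31.

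HSPB9 was higher in testis by a smaller step. Testes had 10.74, 10.19, 10.63 and 10.76, against 10.12, 9.79 and 10.06 in ovaries. Testis 19 lay just above the highest ovary, and the difference was 0.59 (SE 0.19, 1.51-fold, adjusted p = 0.0209). The call was close to the threshold and was lost under 9 of 16 other settings, and a second probe set of the gene differed by 0.51 without being called (adjusted p = 0.113). The last small heat shock protein with gonad values, HSPB11, which is also a part of the intraflagellar transport machinery, ranged from 5.55 to 6.21 in testes and from 5.48 to 6.81 in ovaries and overlapped.

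Some muscle markers were also higher in testis. Of the smooth muscle list ACTG2 and MYH11 were called higher in testis, and DES was not (0.34, adjusted p = 0.339). The 4 heart muscle markers with values averaged 5.91 to 6.48 in testes and 3.51 to 4.26 in ovaries. Of these, 3 were called higher in testis, and TNNC1 was not (0.63, adjusted p = 0.151). The part of muscle cells in the levels of HSPB8, HSPB2 and HSPB9 was not tested.

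DNAJC21, which helps to recycle factors of the large ribosomal subunit in the cytoplasm and is placed on the Z chromosome, was the other gene called higher in testis. Its level was 7.02, 6.94, 6.93 and 6.78 in testes and 6.26, 6.28 and 6.29 in ovaries. The ovaries were nearly equal and all below the lowest testis, with a difference of 0.64 (SE 0.12, 1.56-fold, adjusted p = 5.97e-04).

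**Figure D2:**
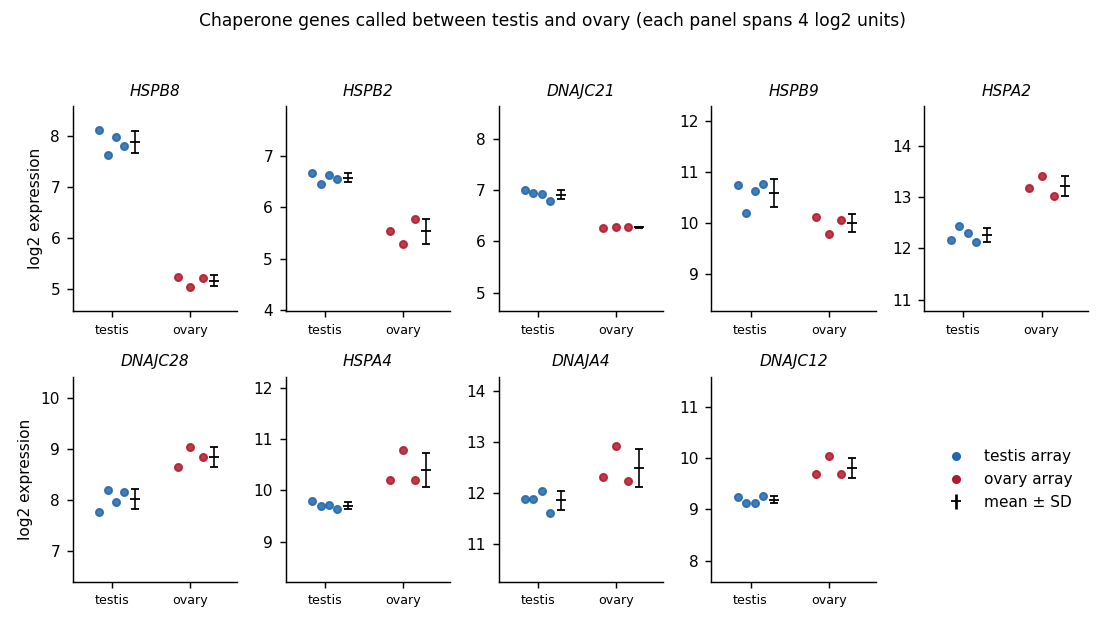
Log2 expression of the 9 member genes called between testis (blue, 4 arrays) and ovary (red, 3 arrays), 1 point per array, with the mean and SD in black; every panel spans 4 log2 units. Testes and ovaries do not overlap in any panel, and ovary 20 (the middle red point) is the highest ovary for HSPA2, DNAJC28, HSPA4, DNAJA4 and DNAJC12.

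HSPA2 had the largest difference in the other direction. This HSP70 gene, placed on chromosome 5, was at 12.16, 12.45, 12.31 and 12.14 in testes, against 13.19, 13.42 and 13.03 in ovaries. All ovaries lay above all testes, and the hearts had 11.96 to 12.37. The difference was -0.95 (SE 0.13, 1.93-fold, adjusted p = 1.63e-05), and it was called under all 16 other settings.

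HSPA4, a nucleotide exchange factor of the HSP110 type that reopens HSP70, was lower in testis as well. Testes had 9.78, 9.69, 9.71 and 9.64, against 10.20, 10.79 and 10.20 in ovaries. The testes were nearly equal and ovary 20 stood apart above the other ovaries. The difference was -0.69 (SE 0.17, 1.62-fold, adjusted p = 0.00344).

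The same ovary was the highest for DNAJA4, a cytosolic HSP40 with a J domain at its start. Its level was 11.87, 11.88, 12.05 and 11.61 in testes and 12.32, 12.91 and 12.23 in ovaries. The difference was -0.63 (SE 0.16, 1.55-fold, adjusted p = 0.00587). DNAJC12, a J protein needed for the hydroxylases of aromatic amino acids in humans, had 9.25, 9.13, 9.14 and 9.26 in testes and 9.70, 10.04 and 9.70 in ovaries, a difference of -0.62 (SE 0.19, 1.54-fold, adjusted p = 0.0201). DNAJC28, a J protein of little known function, had 7.77, 8.19, 7.96 and 8.17 in testes and 8.64, 9.04 and 8.85 in ovaries, a difference of -0.82 (SE 0.20, 1.77-fold, adjusted p = 0.00369). In none of these genes did an ovary reach down to a testis.

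The calls for HSPA4, DNAJA4 and DNAJC12 rested on ovary 20. Without the arrays of that embryo the genes called lower in testis numbered 2 in place of 5. The differences were then -0.50 for HSPA4 (adjusted p = 0.042, under the fold-change of 1.5), -0.42 for DNAJA4 (adjusted p = 0.0533) and -0.50 for DNAJC12 (adjusted p = 0.122). The DNAJA4 call was also lost without male 9, and without female 12 the genes called lower numbered 7. Ovary 20 was the highest of the 3 ovaries for 26 of the 53 members (49.1%), against 34.8% of all genes, ovary 12 for 12 members and ovary 2 for 15. Ovary 20 also had the highest germ cell markers (8.95, against 7.5 in ovary 12 and 7.64 in ovary 2) and meiosis markers (9.39, against 8.53 and 8.92), and the lowest adrenal and chromaffin markers (7.4, against 10.14 and 8.9) and neuron and glia markers (4.86, against 7.08 and 7.43). The chromaffin enzyme TH was at 2.40 in ovary 20, 8.76 in ovary 12 and 6.09 in ovary 2, with 1.99 to 2.41 in testes. DBH followed it (2.36, 5.99 and 4.73 in the same order). CYP11A1 (12.29, 12.51 and 12.26) and STAR (12.55, 13.3 and 12.54) were not lowest in ovary 20. Of the neuron and glia markers NEFM, SNAP25, STMN2 and SYT1 were lowest there. NEFL (6.15, 6.09 and 6.31) and MBP (7.0, 6.98 and 7.23) were not. Markers of immediate early and stress responses (4 of 8 measured) went both ways. JUN (9.98 to 11.63 in testes, 11.32 to 11.80 in ovaries) and ATF3 (2.61 to 3.08 in testes, 5.58 to 6.28 in ovaries) were called lower in testis, EGR1 (11.46 to 11.85 in testes, 10.66 to 11 in ovaries) was called higher, and GADD45A overlapped (10.48 to 10.81 in testes, 10.23 to 10.53 in ovaries). Their mean was 8.68 to 9.22 in testes and 9.64 to 9.74 in ovaries. The part of these cells and genes in the chaperone levels was not tested.

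Over the HSP70 family, 9 genes had gonad values, none was called higher in testis and 2 were called lower, with a median difference of -0.38. HSPA4L, a relative of HSPA4, had 11.13, 11.28, 11.09 and 11.05 in testes and 11.56, 11.88 and 11.38 in ovaries, a difference of -0.47 (adjusted p = 0.00792) that did not reach the fold-change of 1.5. HSPA8, the constitutive cytosolic HSP70, averaged 14.41 in both (95% confidence interval of the difference -0.24 to 0.24), and HSPA9 of mitochondria differed by 0.12 (SE 0.12). HSPA5, the HSP70 of the endoplasmic reticulum also called BiP, ranged from 13.28 to 13.71 in testes and from 13.64 to 13.92 in ovaries, a difference of -0.28 that was not called (adjusted p = 0.129).

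The 6 measured CCT subunits differed by -0.39 to 0.04 and none was called. CCT7 came nearest, with 11.19, 11.54, 11.67 and 11.47 in testes and 11.72, 12.22 and 11.63 in ovaries (difference -0.39, adjusted p = 0.0365). HSP90AA1, the inducible cytosolic HSP90, differed by -0.31 (95% confidence interval -0.63 to 0.01), and HSP90B1 of the endoplasmic reticulum by 0.06 (-0.27 to 0.39). HSPD1, the mitochondrial HSP60, had 11.711, 12.004, 11.975 and 11.999 in testes and 11.588, 11.246 and 11.513 in ovaries. Its groups did not overlap, and the difference of 0.47 (adjusted p = 0.00174) was a fold-change of 1.39, under the threshold.

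In the DNAJ families 29 genes had gonad values, 4 DNAJA, 6 DNAJB and 19 DNAJC, of which DNAJC21 was called higher and DNAJA4, DNAJC12 and DNAJC28 lower. Below the fold-change of 1.5 lay DNAJB4, an HSP40 close to the heat-inducible DNAJB1, with 10.18 to 10.39 in testes and 10.68 to 10.97 in ovaries (-0.57, adjusted p = 0.00488), and DNAJC18, a membrane-bound J protein, with 9.85 to 10.01 in testes and 10.26 to 10.64 in ovaries (-0.52, adjusted p = 5.82e-04). A second DNAJC18 probe set was called, at -0.99 (adjusted p = 7.97e-06). For DNAJC3, an inhibitor of kinases that halt translation, the second probe set was called at 1.08 (adjusted p = 0.0469) and the main one was not (0.12). Over all members, 29 of 36 other probe sets with gonad values had the sign of the main one and 33 the same call.

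Sex differences in soma were few. In brain 1 of 57 genes was called (1.75%), against 1.89% of 8476 genes, and in heart 1 of 61 (1.64%), against 1.95% of 7965 genes. Both were higher in males and placed on Z. Of all genes 1.63% in brain and 1.67% in heart were called higher in males, and 0.260% in brain and 0.276% in heart lower. Males carry a pair of Z chromosomes and females a single Z. Of all genes on Z 33.1% in brain, 32.0% in heart and 54.2% in gonads were called higher in males. The 5 members on Z were DNAJA1, DNAJB5, DNAJC21, DNAJC25 and HSPB3.

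DNAJA1, a cytosolic HSP40 partner of HSPA8, was higher in the male brain. Its level was 11.46, 11.04 and 11.22 in male brains and 10.37, 10.40, 10.34 and 10.12 in female brains. No male brain came near a female one, a difference of 0.93 (SE 0.14, 1.91-fold, adjusted p = 4.54e-04). In hearts it had 10.03, 9.61 and 9.86 in males and 9.40, 9.57, 9.35 and 9.21 in females, and in gonads 11.73, 11.80, 11.74 and 11.55 in testes and 11.37, 11.54 and 11.15 in ovaries. By this main probe set males lay above females in each tissue, by 0.45 in heart (adjusted p = 0.135) and 0.35 in gonads (adjusted p = 0.0562), neither called. The lowest testis (11.55) and the highest ovary (11.543) were nearly level. A second probe set was also called higher in male brains (adjusted p = 2.07e-04), and differed by 0.42 in heart (adjusted p = 0.19). In gonads its groups overlapped, at 10.99 to 11.46 in testes and 10.89 to 11.26 in ovaries (0.15, adjusted p = 0.433).

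DNAJB5, an HSP40 known from heart muscle, was called in heart. Male hearts had 6.28, 6.98 and 6.52 and female hearts 5.89, 5.29, 5.88 and 5.39, without overlap. The difference was 0.98 (SE 0.18, 1.97-fold, adjusted p = 0.0137). It was not called when the hearts were fitted without the other tissues (adjusted p = 0.164), nor without female 12, female 2, male 19 or male 21 (adjusted p 0.0643 to 0.103). In gonads it lay near the lowest levels kept in the table, at 4.57 to 4.74 in testes and 4.38 to 4.51 in ovaries, and it has no value in brain.

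The remaining genes on Z were not called in soma. HSPB3, a small heat shock protein of muscle with values only in heart, had 11.69, 12.30 and 12.32 in male hearts and 11.68, 10.96, 11.34 and 11.10 in female hearts (0.83, adjusted p = 0.21). The lowest male heart was level with the highest female heart. DNAJC25 differed by 0.70 in heart (adjusted p = 0.235) and 0.24 in brain (adjusted p = 0.797). DNAJC21 had 6.59, 6.34 and 6.34 in male brains and 6.06, 5.96, 5.77 and 5.80 in female brains, a difference of 0.53 (adjusted p = 0.0303) below the fold-change of 1.5, while its hearts had 6.05, 6.30 and 6.34 in males and 6.58, 6.51, 6.60 and 6.16 in females. Whether its sex difference differed between brain and heart was not tested. With the arrays of an embryo joined by a random block, DNAJC15, a J protein of the mitochondrial import machinery, was also called in heart (main difference -1.03, adjusted p = 0.0572), which made 2 genes in place of 1.

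The sex difference in gonads was then compared with that in soma, the mean of brain and heart. It differed for 11 of 50 genes (22.0%), against 19.4% of 6766 genes, with 4 above the soma difference and 7 below it, against 8.53% and 10.9% of all genes. HSPA2 differed most clearly, by -1.07 (SE 0.15, adjusted p = 1.02e-04), since male and female brains (11.10 ± 0.16 and 11.06 ± 0.15, mean ± SD) and hearts (12.33 ± 0.04 and 12.13 ± 0.15) lay close together. HSPA4 (-0.84, adjusted p = 0.00681), DNAJA4 (-0.83, adjusted p = 0.00678) and HSPA4L (-0.61, adjusted p = 0.00931) followed, with DNAJC18 (-0.57, adjusted p = 0.00311), DNAJB4 (-0.58, adjusted p = 0.0262) and DNAJC28 (-0.80, adjusted p = 0.0279). In the other direction lay HSPB8 (2.18, adjusted p = 0.0278), HSPB9 (0.69, adjusted p = 0.0418), DNAJC21 (0.49, adjusted p = 0.0291) and HSPD1 (0.46, adjusted p = 0.0156). Against the sex difference of brain alone, a comparison added after the data were seen, 6 genes differed (HSPA2, HSPA4, DNAJA4, HSPA4L, DNAJC18 and HSPD1), and against that of heart alone 10. HSPB8 differed by 1.53 from brain (adjusted p = 0.209) and by 2.82 from heart (adjusted p = 0.0174). Its brain levels lay mostly under 4.0, near the lowest levels kept, so the size is uncertain, and with levels under 4 raised to 4 the difference from soma was 2.56 (adjusted p = 0.00129). DNAJC21 differed by 0.11 from brain (adjusted p = 0.758) and by 0.87 from heart (adjusted p = 0.00222), and HSPB9 by 0.59 from brain (adjusted p = 0.159) and by 0.80 from heart (adjusted p = 0.0483). The HSPB8 call was lost without female 12, female 2, female 20 or male 21. The call was lost under 8 of 17 alternatives for DNAJC21 and under 8 of 17 for HSPB9. Without female 20 the count was 4 in place of 11, without male 21 it was 5, and without female 2 it was 7. The share of all genes was taken for the main comparison only, so counts under other settings have no background beside them. Of 31 other probe sets, 22 had the sign of the main one and 24 the same call. Second probe sets of HSPA4L (-0.46, adjusted p = 0.165), DNAJB4 (-0.39, adjusted p = 0.556) and HSPB9 (0.66, adjusted p = 0.131) were not called. Nor was a further DNAJC18 probe set (-0.29, adjusted p = 0.643). Second probe sets of HSP90B1 (-1.09, adjusted p = 0.0163), DNAJA1 (-0.56, adjusted p = 0.0257) and DNAJC10 (-0.53, adjusted p = 0.0463) were called. The main ones of these genes differed by 0.01, -0.34 and -0.50 in the same order and were not called.

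**Figure D3:**
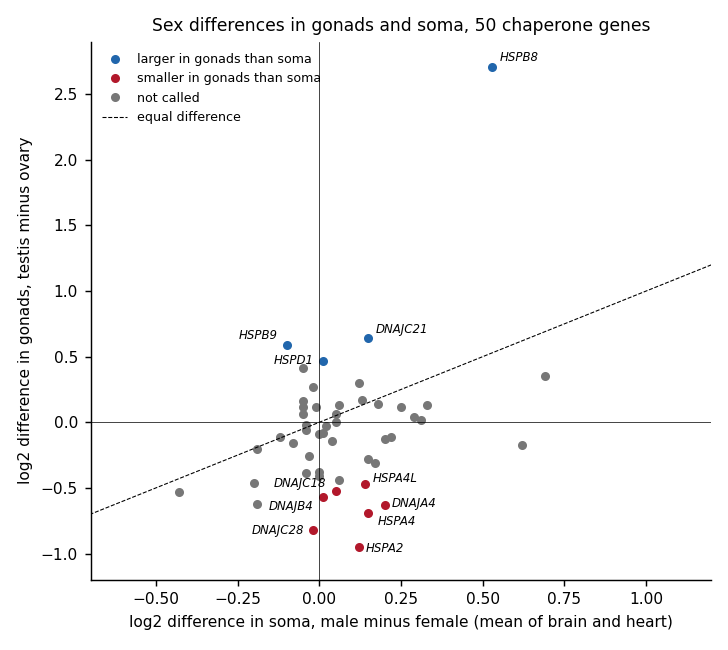
Sex difference of 50 member genes in gonads (y axis, log2, testis minus ovary) against that in soma (x axis, log2, male minus female, mean of brain and heart). On the dashed line both are equal; the 11 named genes are those whose difference in gonads was above (blue, 4) or below (red, 7) that in soma at an adjusted p under 0.05.

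Heart and brain differed for more members than the sexes did. Of 55 genes with values in both, 15 were called higher and 16 lower in heart (56.4%), against 59.0% of 7180 genes, 34.7% higher and 24.3% lower. Small heat shock protein genes stood on the heart side, and the cytosolic HSP90 genes and the HSP70 genes HSPH1, HSPA12A, HSPA8 and HSPA4L on the brain side.

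**Figure D4:**
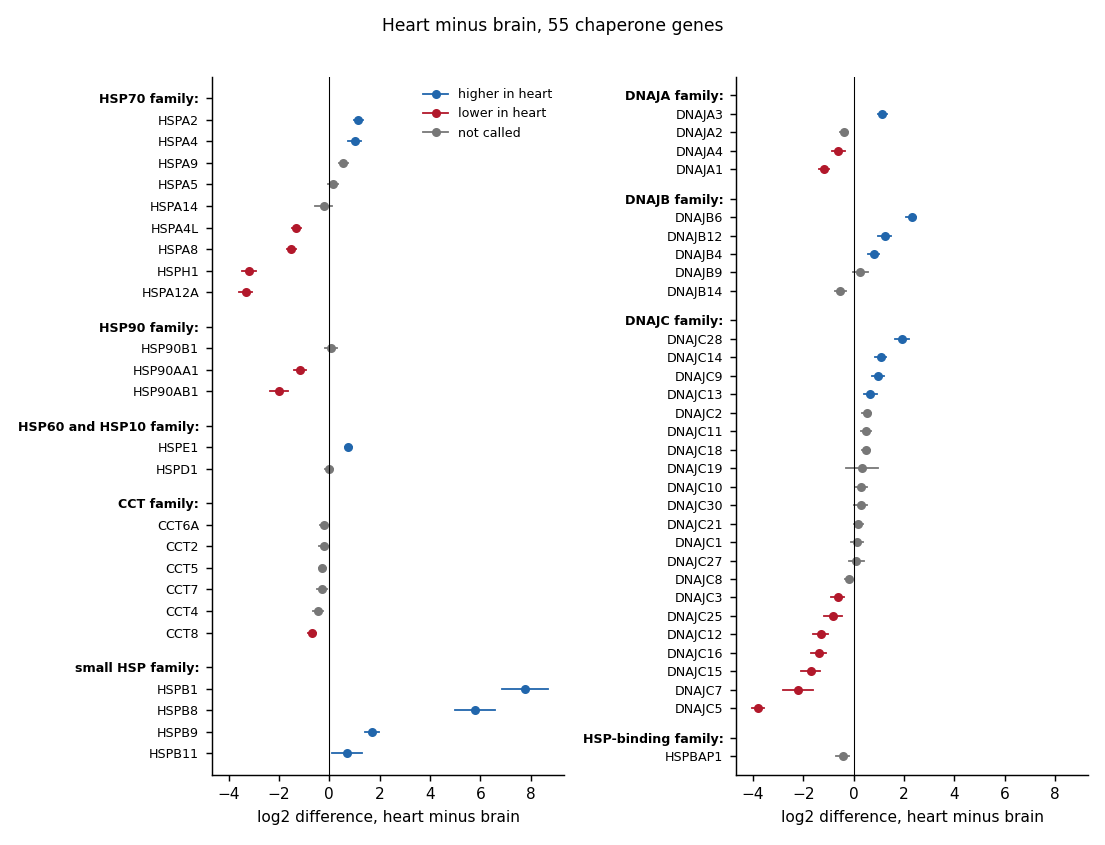
Difference between heart and brain of each member gene (points, log2, heart minus brain) with its 95% confidence interval (lines), ordered by family. The 4 small heat shock proteins with values in both tissues are higher in heart (blue), by 0.70 to 7.78, and 16 genes are lower in heart (red).

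All 4 genes counted by symbol as small heat shock proteins and with values in both tissues were called higher in heart. HSPB1 (HSP27) was at 13.89, 13.66 and 13.54 in male hearts and 13.48, 13.65, 13.74 and 13.44 in female hearts, against 6.69, 7.01 and 4.86 in male brains and 5.52, 4.93, 7.26 and 4.42 in female brains. The hearts were close to each other and the brains spread widely, with a difference of 7.78 (SE 0.42, adjusted p = 1.14e-09). HSPB8 had 8.94 to 10.56 in hearts and 2.64 to 5.75 in brains (5.78, SE 0.38, adjusted p = 1.40e-10). Most of its brain values lay under 4.0, the lowest mean that the higher sex of any probe set with values had in a tissue, so that the size of the difference is uncertain. HSPB9 (1.68, adjusted p = 1.70e-09) and HSPB11 (0.70, adjusted p = 0.0274) followed. For HSPB11 hearts (5.73 to 7.29) and brains (5.12 to 6.87) overlapped. HSPB3 (10.96 to 12.32) and HSPB7L (12.67 to 13.12) had values in heart alone, so they could not be compared with brain.

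**Figure D5:**
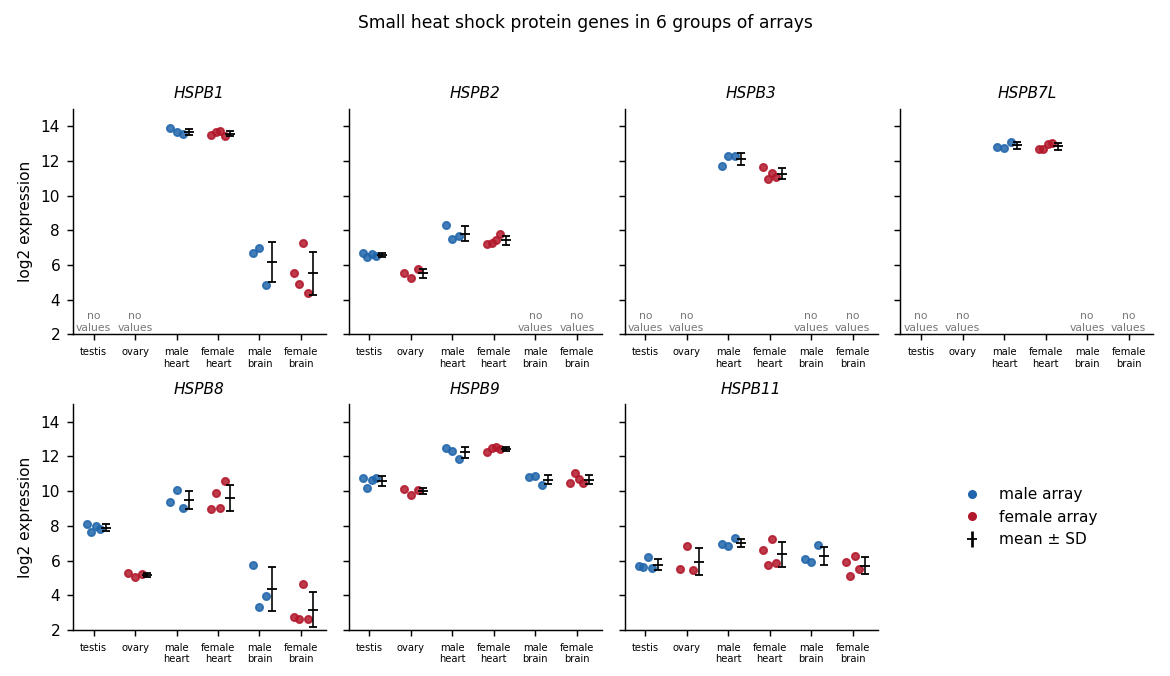
Log2 expression of the 7 small heat shock protein genes in testis, ovary, heart and brain, 1 point per array (male blue, female red), with the mean and SD in black. Of the tissues with values, HSPB1, HSPB8 and HSPB9 are highest in heart, HSPB8 and HSPB2 lie higher in testis than in ovary, and tissues blank in the table are marked.

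Among the HSP70 genes the largest difference was that of HSPA12A, a distant member of the family, at 9.34 to 9.79 in hearts and 12.64 to 13.20 in brains (-3.32, SE 0.12, adjusted p = 2.98e-14). HSPH1 (HSP105), an exchange factor of the HSP110 type, had 7.02 to 8.03 in hearts and 10.60 to 11.09 in brains (-3.20, SE 0.13, adjusted p = 2.13e-13). Its relative HSPA4 went the other way, with 9.86 to 10.54 in hearts and 9.01 to 9.48 in brains (adjusted p = 3.86e-07), and so did HSPA2 (1.15, adjusted p = 1.43e-09). HSPA8 was at 13.56 to 13.93 in hearts and 15.03 to 15.29 in brains (-1.51, SE 0.08, adjusted p = 7.75e-12). HSP90AB1, the constitutive cytosolic HSP90, was at 8.33 to 9.62 in hearts and 10.75 to 11.67 in brains (-2.01, adjusted p = 9.51e-08), and HSP90AA1 fell in heart by 1.16 on the log2 scale (adjusted p = 1.82e-08).

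Of the DNAJ genes, DNAJC5 had the largest difference. It encodes cysteine string protein, a chaperone of synaptic vesicles, and was at 8.75 to 9.27 in hearts and 12.63 to 12.96 in brains (-3.79, SE 0.12, adjusted p = 3.61e-15). Lower in heart were also DNAJC15 (-1.70), DNAJC16 (-1.39), DNAJC12 (-1.31) and DNAJA1 (-1.17). DNAJC28 (1.93, with 9.45 to 10.10 in hearts and 7.58 to 8.29 in brains), DNAJB12 of the endoplasmic reticulum membrane (1.24) and the mitochondrial DNAJA3 (1.13) were higher in heart. The 6 CCT subunits with values in both tissues differed by -0.70 to -0.21, each lower in heart with an adjusted p of 0.0378 or less, but only CCT8 passed the fold-change of 1.5.

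For some genes the probe sets disagreed. DNAJB6, an HSP40 that keeps polyglutamine proteins from aggregating and is mutated in a human muscle disease, was higher in heart by its main probe set (11.24 to 11.57 in hearts, 8.69 to 9.36 in brains, difference 2.30) and lower in heart by a second one (8.66 to 9.09 in hearts, 11.92 to 12.25 in brains, difference -3.03), each with hearts and brains far apart, and another differed by -0.56. DNAJC7 differed by -2.21 in its main probe set and by 0.95 in the other, CCT8 by -0.70 and 0.57, and HSP90B1 by 0.06, not called, and -1.57 (adjusted p = 1.93e-07). DNAJC18 differed by 0.49 in its main probe set, which was not called, and by -1.01, 0.79 and 0.34 in the others, of which the first and the second were called in opposite directions. Of 35 other probe sets with values in both tissues, 27 had the sign of the main one and 21 the same call. The table does not say which transcripts a probe set reads, so a heart or brain direction for these genes holds only for the named probe set.

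Gonads were last set against soma. Of 50 genes with values in all 3 tissues, 12 were called higher and 7 lower in gonads (38.0%), against 50.4% of 6766 genes, 32.4% higher and 18.0% lower. With centred arrays 11 were higher and 12 lower. A gene far apart between heart and brain can be called against their mean alone, so gonads were also set against each. Against both, 9 of the 50 genes were higher in gonads (17.8% of all genes were) and only DNAJC30 was lower (8.00% of all genes were).

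The 9 genes included 4 of the endoplasmic reticulum. Members were not sorted by compartment, so no share is given. Others of this compartment or its membrane were not called higher than both. Examples are DNAJC3 (0.40 against heart, -0.23 against brain), DNAJC1 (0.28 and 0.40) and DNAJB12 (-0.58 and 0.66). HSPA5 was at 13.28 to 13.92 in gonads, 12 to 12.70 in hearts and 12.23 to 12.50 in brains, higher in gonads by 1.15 than in heart (adjusted p = 6.72e-09) and by 1.31 than in brain (adjusted p = 7.95e-10). For its HSP90 partner HSP90B1 (GRP94) the probe sets disagreed. The main one was higher by 0.97 than in heart and by 1.03 than in brain, without overlap. The other, at 8.18 to 9.23 in gonads, 6.39 to 8.30 in hearts and 8.72 to 9.48 in brains, was higher than in heart by 0.95 (adjusted p = 9.42e-05) and lower than in brain by 0.62 on the log2 scale (adjusted p = 0.0038). DNAJC10, a reductase with a J domain that serves HSPA5, was higher by 0.98 and 1.29, and DNAJB9, another J protein of this compartment, by 0.64 and 0.91. No gonad array of HSPA5 overlapped with soma.

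The others were DNAJC9, which also handles histones, with 10.10 to 10.66 in gonads, 8.97 to 9.73 in hearts and 8.05 to 8.59 in brains (1.01 above heart, 1.99 above brain), DNAJA1 (1.92 and 0.76), DNAJA4 (1.45 and 0.85), the ribosome-associated HSPA14 (1.10 and 0.87) and DNAJC13 of endosomes (0.77 and 1.44). Of the 9 genes, DNAJB9, DNAJC9 and DNAJA1 each also had another probe set that was not called against both. DNAJC30, a mitochondrial J protein, was lower by 1.01 than in heart and by 0.73 than in brain on the log2 scale. HSPA12A and DNAJC7, called lower against the mean of soma, differed from heart by -0.14 (adjusted p = 0.3) and -0.37 (adjusted p = 0.235). For DNAJC7 the probe sets disagreed. The other was called lower than heart (-1.10, adjusted p = 2.19e-08) and was not called against brain (-0.15, adjusted p = 0.194). HSPB8 and the main probe set of DNAJB6 lay above brain (2.77 and 0.60) and below heart (-3.01 and -1.70), as 4.33% of all genes did. Another DNAJB6 probe set differed by -0.44 from brain (adjusted p = 7.62e-04) and by 0.11 from heart (adjusted p = 0.338), neither called. HSPA8, HSPH1 and DNAJC5 lay below brain (-0.81, -2.30 and -2.30) and above heart (0.70, 0.90 and 1.49), as 4.63% of all genes did. The 5 CCT subunits measured throughout were above heart by 0.48 to 0.85, with CCT4 (0.60) and CCT8 (0.85) called, and above brain by 0.15 to 0.32, with none called. Shares of all genes against heart alone or brain alone were not taken, so these calls have no background beside them. CCT3, blank in brain, differed from heart by -0.18 (adjusted p = 0.18), not called. Against brain the adjusted p was 0.133 for CCT4, 0.102 for CCT7 and 0.0781 for CCT8. Another, dimmer CCT8 probe set was called above brain (1.27, adjusted p = 6.27e-05) and above heart (0.70, adjusted p = 0.0106).

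Chaperone genes outside the rule were read from a list of 59, of which 45 had gonad values. In testis 3 were called higher and 1 lower, where 12.6% of all genes were called higher and 14.3% lower, and their median difference was 0.02. CRYAB, the alpha B crystallin and itself a small heat shock protein, lies beside HSPB2 on chromosome 24 with 0 genes between them in the GRCg7b gene table. It averaged 8.90 ± 0.58 in testes and 6.13 ± 0.90 in ovaries (SD, n = 4 and 3; 2.77, adjusted p = 1.17e-04). Its hearts averaged 7.85 ± 0.34 in males and 7.15 ± 0.23 in females. FKBP4, a partner of HSP90 in steroid receptor complexes, averaged 13.44 ± 0.18 in testes and 12.65 ± 0.20 in ovaries (0.78, adjusted p = 1.12e-04), and AHSA2, an activator of HSP90, 5.94 ± 0.31 in testes and 5.12 ± 0.32 in ovaries (0.82, adjusted p = 0.00833). CDC37, which loads kinases onto HSP90, was lower, at 5.44 ± 0.51 in testes and 7.13 ± 0.17 in ovaries (-1.70, adjusted p = 0.00395).

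The heat shock factors, which switch on heat shock genes, were measured for 2 of 4 genes. HSF2 averaged 9.79 ± 0.12 in testes and 10.07 ± 0.15 in ovaries (-0.29, adjusted p = 0.0636) and HSF3 8.98 ± 0.10 in testes and 9.09 ± 0.25 in ovaries (-0.11, adjusted p = 0.564), and neither was called between the sexes in any tissue. Across tissues, 6 of 11 listed chaperones of the endoplasmic reticulum were called higher in gonads than in heart and also than in brain, where 17.8% of all genes were, and 0 were called lower than both, where 8.00% were. Against the mean of soma they were led by the collagen chaperone SERPINH1 (2.79) and the disulfide isomerase PDIA6 (1.87). The list was chosen with earlier results of these data known, and gonads and soma differed in RNA kit. No conclusion is drawn from its share. Of the mitochondrial list 5 of 6 genes were called higher in heart than brain and 0 lower, where 34.7% of all genes were called higher and 24.3% lower. In gonads 3 of the 6 were called lower than the mean of soma, where 18.0% of all genes were, but 0 of the 6 were called lower than both heart and brain. BAG3, the partner of HSPB8, was at 10.79 on average in heart and 8.25 in brain (2.54, adjusted p = 2.40e-11), and it was not called between testis and ovary (0.40, adjusted p = 0.159).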

How the data were processed

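Per the labels and the study's methods, the authors deposited log2 expression levels made from Affymetrix chicken arrays (background by GCRMA, quantiles equalized over arrays, probes summarized by median polish), and left a tissue blank where a probe set failed filters on level and on MAS5 presence calls. R 2.4.1 and MAS5 appear in the submitters' processing notes. In the table were 19874 probe sets with values from 1.68 to 16.2. Array signals hold no read depth, so the 3 or 4 arrays a group limit the precision.

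Probe sets were named from the array annotation (16197 with 1 gene, 85 with several, 3592 unlisted) and placed by gene number in the GRCg7b gene table (16063 matched). Means of the 6 groups were fitted to all 21 arrays with limma 3.58.1 in R 4.3.3, with p-values adjusted by Benjamini-Hochberg over every probe set with values in the tissues compared (16499 in gonads, 16113 in brain, 15282 in heart, 11710 in all). The fit was tested on simulated data for the sex differences within a tissue only. The simulated noise was independent between arrays, without an embryo effect, so the comparisons between tissues were not covered. The comparison of gonad with soma sex differences was called on the adjusted p alone. Arrays of 1 tissue correlated at 0.878 or more. No genome sequence was used, and whether probes tell similar genes apart was not checked.

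Embryo numbers in the labels pair the tissues of 1 animal: deviations from the group mean correlated at 0.164 to 0.455 within an embryo (19 pairs) and -0.433 to 0.199 between embryos (54 pairs). Alternatives were fitting tissues alone, embryo blocks, array weights, a variance trend, centring, quantiles within a tissue, a level filter, other rules for probe sets and folds, and leaving out each embryo.

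The members and lists were chosen with earlier results of these data known. Genes were named by rule: those called by sex (in gonads at most 12 each way), the 6 largest called changes each way in each tissue comparison, the 6 smallest adjusted p-values for gonads against soma in sex difference, the 2 brightest of any family left without a name, genes on Z, heat shock factors, and at most 4 other listed chaperones called each way in gonads. Other genes given with values were chosen after their values were seen.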

Additional observations from a re-analysis of the deposited data

Results flagged for a closer look

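The sex difference in gonads differed from that in soma (testis minus ovary, less the male minus female mean of brain and heart, limma, adjusted p under 0.05) for 11 genes. They were 22.0% of 50 members, close to the 19.4% of all 6766 genes. Leaving out 1 embryo at a time gave 4 to 10 genes. Above the soma difference were HSPB8 by 2.18 (adjusted p = 0.0278), HSPB9 by 0.69 (adjusted p = 0.0418), DNAJC21 by 0.49 (adjusted p = 0.0291) and HSPD1 by 0.46 (adjusted p = 0.0156). Against brain alone HSPB8, HSPB9, DNAJC21, DNAJC28 and DNAJB4 were not called, and against heart alone HSPD1 was not. Below it were HSPA2 by -1.07 (adjusted p = 1.02e-04), HSPA4 by -0.84 (adjusted p = 0.00681), DNAJA4 by -0.83 (adjusted p = 0.00678), DNAJC28 by -0.80 (adjusted p = 0.0279), HSPA4L by -0.61 (adjusted p = 0.00931), DNAJB4 by -0.58 (adjusted p = 0.0262) and DNAJC18 by -0.57 (adjusted p = 0.00311).

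In groups of 4 arrays, an array was marked when the share of the group's range taken by its gap to the nearest other array passed the 95% critical value of Dixon's test. Chance marks about 1 of 20 groups, and 8 of the 96 tested were marked. The test covered only part of the member genes, so the marks are no full list of outlying arrays. Female brain 20 lay above the other female brains for HSPB8 (4.65, against 2.64 to 2.75, share 0.945), HSPA12A (13.15, against 12.89 to 12.93, share 0.848), DNAJC7 (8.64, against 7.95 to 8.02, share 0.891) and HSPD1 (11.64, against 11.50 to 11.52, share 0.874). Female heart 2 lay above the others for HSP90AB1 (9.62, against 9.18 to 9.20, share 0.952) and below them for HSPD1 (11.34, against 11.53 to 11.55, share 0.911). Female heart 10 lay above the others for DNAJC25 (7.32, against 6.48 to 6.62, share 0.834), and testis 16 below the others for HSPD1 (11.71, against 11.975 to 12.004, share 0.902).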

How the results depend on the processing

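Of 59 called differences of named genes, 37 kept their call under every alternative, 21 lost it under at least 1, and 1 (HSPH1 in gonads minus soma) reversed. Leaving out 1 embryo at a time gave 3 to 4 genes called higher in testis (4 with all), 2 to 7 called lower in testis (5; 2 without female 20), 1 in brain (1), 0 to 1 in heart (1), 13 to 15 higher and 14 to 16 lower in heart than brain (15 and 16), 12 higher and 7 to 8 lower in gonads than soma (12 and 7), and 4 to 10 whose sex difference in gonads differed from soma (11). A fold-change over 2 left 2 genes higher and 0 lower in testis, 0 in brain, 0 in heart, 9 higher in heart than brain and 4 lower in gonads than soma. Without a fold threshold 10 were lower in testis, 2 were called in brain, 25 were lower in heart than brain, and 24 were higher and 16 lower in gonads than soma. Counting every member probe set gave 2 in brain, 25 higher and 27 lower in heart than brain, 20 higher and 12 lower in gonads than soma, and 17 for the comparison of gonads with soma. Of 3 alternatives chosen after seeing the data, the sex difference in gonads set against brain alone gave 6 genes in place of 11, against heart alone 10, and levels under 4 raised to 4 gave 11. Centring gave 2 in heart and 12 lower in gonads than soma, and fitting the hearts alone gave 0. Of gonads minus soma, HSPB8 (2.77) and DNAJB6 (0.60) reversed against brain alone, and DNAJC5 (1.49) and HSPH1 (0.90) against heart alone, as brain and heart lay on opposite sides of gonads. The cause of the other changes was not tested. Shares of all genes were not taken under these alternatives, so a changed count cannot be set against all genes.

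With a random replicate block for the embryo 4 genes were higher and 5 lower in testis, 1 was called in brain, 2 in heart and 12 in the comparison of gonads with soma, and with a fixed replicate block 15 were higher and 16 lower in heart than brain, and 12 higher and 7 lower in gonads than soma. The block took no call from a named gene. It added DNAJC15 in heart and DNAJC10 in the comparison of gonads with soma. Quantiles were run for sex differences only, and comparisons over all 3 tissues had no fit of tissues alone.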

Other observations

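DNAJC19, a J protein of the mitochondrial inner membrane, was not called in any comparison. The tissues of female 12 stood above the other arrays of their tissues: ovary 12 had 5.75, where the other gonads had 3.93 to 4.06, brain 12 had 5.09, where the other brains had 3.79 to 4.09, and heart 12 had 5.81, where the other hearts had 4.07 to 5.24. The next highest heart was that of female 10 (5.24), whose brain was at 4.09. Most other arrays lay near 4.0, close to the lowest levels kept in the table, so the size of these gaps is uncertain. The gene was picked after its values were seen.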
